A study of Mus musculus with 1203 samples.

Results

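The nuclear genes of oxidative phosphorylation were followed through single cells of the mouse colon. The set held 93 of the 46517 gene rows of the deposited table. It took every symbol that starts with Nduf, Uqcr, Atp5 or Cox followed by 4 to 8, together with Sdha, Sdhb, Sdhc, Sdhd and Cycs, and left out 4 symbols containing -ps, which were listed at 0 TPM in every group. TPM is a share of a cell's transcripts, normalised by transcript length. Complex I contributed 45 genes, of which 7 are Ndufaf assembly factors, complex II 4, complex III 8, complex IV 18 and complex V 17, and Cycs stood alone. Complexes were assigned by the start of the symbol alone, so a gene's class need not be the complex in which its protein works. All 93 are annotated as protein-coding in GENCODE M21 (GRCm38).

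Oxidative phosphorylation passes electrons from NADH and succinate along protein complexes of the inner mitochondrial membrane to oxygen and uses the resulting proton gradient to make ATP. Complex I oxidises NADH, complex II (succinate dehydrogenase) also works in the citric acid cycle, complex III hands electrons to cytochrome c, complex IV reduces oxygen, and complex V is the ATP synthase. Most subunits are encoded in the nucleus and a few core subunits of complexes I, III, IV and V by the mitochondrial genome, whereas complex II is encoded by nuclear genes alone. In the colon, absorptive colonocytes burn butyrate in their mitochondria, and tuft cells are rare chemosensory cells of the same epithelium.

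Single cells from the colons of female mice, 11 weeks old, had been sorted into wells and sequenced by a modified Smart-seq2 protocol. The mice were either wild type (wt in the labels, WT here) or VillinCre;IPMKf/f (cKO here), in which Cre driven by the Villin promoter recombines floxed Ipmk alleles in intestinal epithelial cells. Ipmk encodes inositol polyphosphate multikinase. Tuft cells had been sorted with antibodies to the epithelial protein EpCAM and to Siglec-F, and every well was labelled tuft or epithelial. Titles place WT wells in plate sets 1, 3 and 6 and cKO wells in plate sets 2, 4, 5 and 7, so genotype and plate set cannot be told apart. The labels name no animal. Each genotype was therefore treated as 1 sample, no p-value was computed, and the SDs are those between plate sets, which may be technical.

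Of 1203 wells, 856 had at least 1000 genes above 0 TPM and were kept (59% WT). Among 766 kept cells labelled tuft, 60.97% reached 50 TPM of Trpm5, the taste-transduction channel of tuft cells, and 100 TPM of Dclk1, a tuft cell kinase. They are called Trpm5/Dclk1-high cells here (60.17% WT), and the rest Trpm5/Dclk1-low cells (61.87% WT). Plate set 6, which has the most plates, gave 33.4% of the high cells and 38.8% of the low cells, and plate set 7 only 9 and 14 cells. This is a range and not a cell type: 190 of the 766 cells lay within 2-fold of either threshold, and 52.17% of the low cells had both genes at 0. The wells labelled epithelial gave 39 WT and 51 cKO cells, and 18 of the 39 WT wells met the same thresholds against 1 of the 51 cKO wells. Read depth is not recoverable from TPM. In its place the number of genes above 0 is given, whose median was 2755 (WT) and 2416 (cKO) in high cells, 2550 and 2207 in low cells, and 2251 and 3506 in epithelial wells. The 18S ribosomal RNA entry Rn18s-rs5 took 78.6% of all TPM in high cells and 74.3% in low cells, so key values are also given after removing it together with the mitochondrial genome and the spike-ins ("rescaled").

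Tuft, colonocyte and goblet marker lists set the 2 tuft-gate classes apart. Over plate sets, 12 tuft markers summed to 1764 to 2805 TPM in high cells and 83.3 to 337.5 TPM in low cells. Colonocyte markers (10 genes) summed to 15.4 to 768 TPM in high and 1996 to 11088 TPM in low cells, and 6 and 10 of them reached 1 TPM. Goblet markers (8 genes, 2 to 3 of them at 1 TPM in high cells and 8 in low cells) summed to 3.41 to 21.5 and 26.1 to 3761 TPM, with Clca1 and Spink4 at 0 in high cells. Macrophage markers (6 genes) summed to at most 2.06 TPM in high cells and ranged from 0 to 2271 TPM in low cells. In low cells 3 of them reached 1 TPM, namely Lyz2 (162.4 TPM), Cd74 (364.2 TPM) and H2-Ab1 (227.5 TPM). C1qa, C1qb and Adgre1 were at 0.53, 0 and 0.41 TPM. Low cells thus carried colonocyte and goblet markers and part of the macrophage list. Stem or progenitor markers (9 genes) did not set the classes apart, at 45.01 to 108.6 TPM in high and 21.44 to 85.22 TPM in low cells. Enteroendocrine, eosinophil and lymphocyte markers summed to at most 40.4 TPM in any plate set of either class. Ipmk itself was not lower in wells labelled cKO. In high cells its mean was 2.23, 1.68 and 1.77 TPM in WT plate sets 1, 3 and 6 and 4.84, 12.7, 2.17 and 1.297 TPM in cKO plate sets 2, 4, 5 and 7, and it was above 0 in 20.3% of WT and 17.2% of cKO cells. In low cells it was 5.13 to 8.84 TPM over WT and 11.6 to 30.3 TPM over cKO plate sets, higher in cKO without overlap and so against the label. In epithelial wells the ranges overlapped, at 1.55 to 8.26 and 1.23 to 34.2 TPM. The labels do not say which exons are floxed, so a gene-level value need not show the deletion, and each direction below that names WT or cKO is that of the wells so labelled.

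The 93 genes together made up 0.52% of all TPM in high cells, or 5201 ± 1169 TPM (SD, n = 7 plate sets). Low cells held 6658 ± 1882 TPM and epithelial wells 10404 ± 2728 TPM. In high cells the sum was 6488, 6164 and 4581 TPM in WT plate sets 1, 3 and 6, and 4422, 5525, 5999 and 3229 TPM in cKO plate sets 2, 4, 5 and 7. The lowest of these came from plate set 7, which rests on 9 high cells. Within high cells complex IV gave 29.9% of the sum, complex V 25.4%, complex I 24.2%, complex III 18.95% and complex II 1.47%. Single cells ranged from 291.2 to 36848 TPM with a median of 4203 TPM, and a median of 33 of the 93 genes was above 0 per cell.

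**Figure D1:**
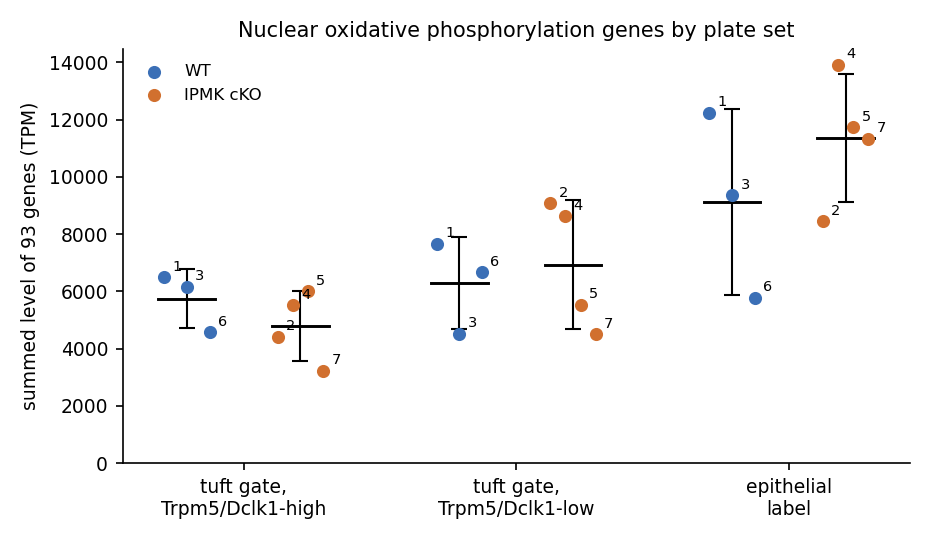
Summed level of the 93 nuclear oxidative phosphorylation genes (y axis, TPM, linear from 0) in each plate set (points, numbered by plate set) of the 3 cell classes; lines and bars are the mean ± SD over plate sets. Plate sets of the 2 genotypes overlap in every class, and epithelial wells of plate set 6 (5779 TPM) lie lowest among epithelial wells.

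The most abundant member was Uqcrq, a small subunit of complex III (ENSMUSG00000044894, chromosome 11 from 53427922 to 53430831, minus strand, GRCm38). It averaged 590 ± 210.1 TPM in high cells, 784.3 ± 314.6 TPM in low cells and 1171 ± 549.4 TPM in epithelial wells, and supplied 11.4% of the sum in high cells. Atp5b, the catalytic beta subunit of the ATP synthase, came next in high cells, behind Cox4i1 in low cells and behind Cox5b in epithelial wells, at 472.9 ± 124.2, 446.5 ± 158.6 and 702.7 ± 179.6 TPM in high, low and epithelial cells. Of complex IV, Cox7c averaged 280.5 ± 163.8 TPM, Cox4i1 267.6 ± 68.3 TPM and Cox8a 262.6 ± 56.99 TPM in high cells. The leading genes of complex I were lower, with Ndufb9 at 105.3 ± 25.3 and Ndufb7 at 87.99 ± 23.9 TPM among the first 3. In high cells 69 of the 93 genes reached 10 TPM, 13 reached 100 TPM, and 6 were listed at 0. The 10 most abundant genes made up 52.4% of the sum.

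Complex II set high and low cells of the tuft gate apart in every plate set. Its 4 genes summed to 71.7 ± 11.2 TPM in high cells and 164.2 ± 45.1 TPM in low cells, a log2 difference of −1.15 (SD 0.54, n = 7), lower in high cells in 7 of 7 plate sets. The sum over all 93 genes differed by only −0.34 (SD 0.50), lower in 5 of 7 plate sets, a difference within the spread between plate sets. High-cell values of complex II ran from 50.3 to 83.8 TPM and low-cell values from 99.8 to 219.2 TPM, so the 7 and 7 values did not overlap. As a share of the 93-gene sum, complex II was 1.47% ± 0.55 in high cells (1.02 to 2.59%) and 2.51% ± 0.49 in low cells (1.90 to 3.36%), and these shares overlapped. The other complexes differed by −0.25 (complex I), −0.33 (III), −0.41 (IV) and −0.29 (V), each with plate sets of both signs. Abundant genes weigh most in these sums, and single genes of every other complex were lower in all plate sets too, as given below.

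Sdhb, the iron-sulphur subunit (ENSMUSG00000009863, chromosome 4 from 140961203 to 140979193, plus strand), was 23.1, 26.1 and 17.9 TPM in high cells of WT plate sets 1, 3 and 6 and 28.1, 28.4, 28.4 and 13.7 TPM in those of cKO plate sets 2, 4, 5 and 7. In low cells it was 70.4, 39.6 and 58.7 TPM (WT) and 70.9, 61.9, 45.6 and 75.8 TPM (cKO) in the same order. Every low-cell value lay above every high-cell value, and the log2 difference was −1.32 (SD 0.62).

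Sdhd, a membrane anchor subunit (ENSMUSG00000000171, chromosome 9 from 50596357 to 50603812, minus strand), was 26.5, 30.8 and 13.5 TPM in WT and 16.2, 19.7, 17.1 and 6.52 TPM in cKO high cells. Low cells held 83.3, 41.1 and 64.2 TPM (WT) and 86.02, 69.7, 50.1 and 56.98 TPM (cKO). Again the groups did not overlap, with a log2 difference of −1.82 (SD 0.80).

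Sdhc, the other anchor subunit (chromosome 1, 171127165 to 171150603), was low throughout, at 4.64 ± 1.76 TPM in high and 13.6 ± 10.7 TPM in low cells. It was lower in high cells in 6 of 7 plate sets, and the spread in low cells came mainly from plate sets 1 and 6, at 24.03 and 32.7 TPM. Sdha, the flavoprotein that binds succinate (ENSMUSG00000021577, chromosome 13 from 74322254 to 74350280, minus strand), did not separate the classes, at 24.8 ± 17.2 against 25.7 ± 13.7 TPM (log2 difference −0.10, SD 1.15). In high cells its values ran from 12.6 TPM to 62.2 TPM, the latter in plate set 7.

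**Figure D2:**
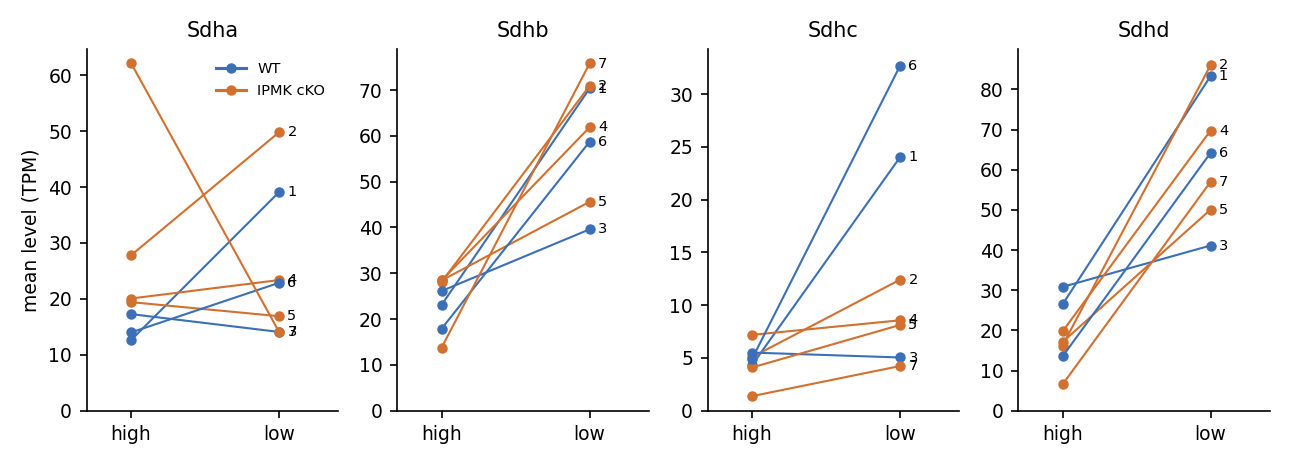
Mean level (y axis, TPM, linear from 0, own scale per gene) of the 4 complex II genes in Trpm5/Dclk1-high and low tuft-gate cells, with 1 line per plate set (numbered, coloured by genotype label). All 7 lines climb from high to low cells for Sdhb (highest high-cell value 28.4 TPM, lowest low-cell value 39.6 TPM) and Sdhd (30.8 and 41.1 TPM), but not for Sdha.

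The complex II difference was also seen between cells with like numbers of detected genes. From 2000 to 3000 genes, high cells averaged 37.98 TPM of complex II and low cells 117.1 TPM, and at least 1 of the 4 genes was above 0 in 72.3% and 95% of them. From 1000 to 2000 genes the means were 20.1 and 61.6 TPM, from 3000 to 4000 genes 83.5 and 225.6 TPM, and above 4000 genes 183.3 and 314.9 TPM. After rescaling the difference was −1.32 (SD 0.42). Other cell types' markers moved with it, as given above, and their part in the result was not tested.

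**Figure D3:**
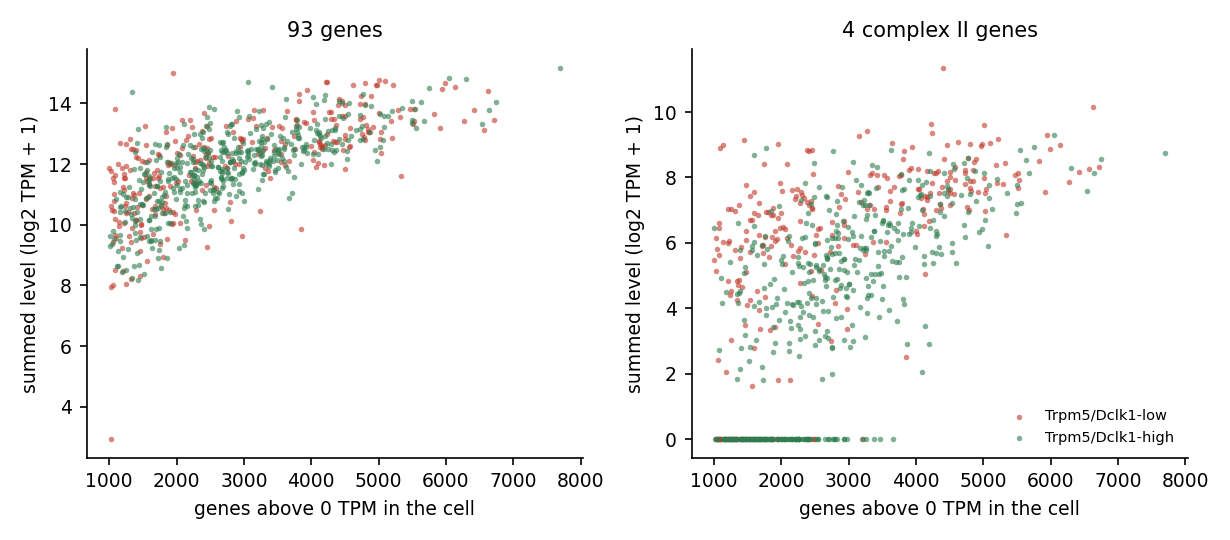
Each point is a kept tuft-gate cell, plotted by its number of genes above 0 TPM (x axis) and its summed level of the 93 genes (left) or of the 4 complex II genes (right) as log2(TPM + 1) (y axes). Both sums climb with the number of genes detected, and high cells at a complex II level of 0 are frequent below 3000 genes.

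The sequences before the start sites of complex II genes are shown because Sdhb and Sdhd moved together while Sdha did not; Cycs, whose promoter is a classical target of NRF1, is shown for comparison. Each run is the 120 bases upstream of both the RefSeq and the GENCODE start (GRCm38.p6, taken from the RefSeq promoter table), printed 5′ to 3′ on the gene's strand in lower case. Capitals mark exact matches on either strand to GCATGCGC (core of the NRF1 site), CCGGAAGT (ETS factors such as GABPA), AAGATGGC (YY1) or CCAAT (the CCAAT box, ATTGG on the other strand).
Sdha, chr13:74350281-74350400, minus strand: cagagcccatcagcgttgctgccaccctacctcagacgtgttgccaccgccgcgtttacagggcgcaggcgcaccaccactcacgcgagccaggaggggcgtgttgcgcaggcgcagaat
Sdhb, chr4:140961083-140961202, plus strand: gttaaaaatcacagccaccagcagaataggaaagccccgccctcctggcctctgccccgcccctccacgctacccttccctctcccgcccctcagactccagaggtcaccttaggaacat
Sdhd, chr9:50603850-50603969, minus strand: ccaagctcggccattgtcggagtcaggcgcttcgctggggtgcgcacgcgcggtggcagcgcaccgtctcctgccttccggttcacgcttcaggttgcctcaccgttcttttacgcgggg
Cycs, chr6:50566570-50566689, minus strand: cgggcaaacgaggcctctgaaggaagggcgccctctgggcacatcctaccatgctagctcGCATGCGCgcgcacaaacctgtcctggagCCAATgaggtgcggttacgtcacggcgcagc

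None of the 4 motifs occurs in the printed stretches of Sdha, Sdhb and Sdhd, whereas that of Cycs holds the NRF1 core and a CCAAT box, the first bases of which lie 60 and 31 bases before the end of the run. The full RefSeq windows of Sdhb and Sdha hold more. Outside the printed bases that of Sdhb has at least 1 NRF1 core and at least 1 CCAAT box, and that of Sdha at least 1 CCAAT box. Over the full RefSeq windows (250 bases before to 50 after the start), which 74 of the 93 genes had, the NRF1 core was present in 17.6% of members, 2.80% of all 27025 genes with a window and 5.78% of 1747 other genes at 10 TPM or more in the tuft gate. The corresponding shares were 10.8%, 2.88% and 4.01% for YY1, 6.76%, 4.00% and 8.64% for ETS, and 44.6%, 37.9% and 39.7% for the CCAAT box. The NRF1 and YY1 letters were therefore more frequent among members than in either background, the ETS letters were not more frequent than among the other expressed genes, and the CCAAT box was common everywhere. These are matches of letters, not binding sites. Among the members lower in high cells, 2 of 14 with a window held the NRF1 core (14.3%), near the share of all members.

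Across the whole tuft gate, a gene was called when it reached 10 TPM in either class, differed at least 1.5-fold on log2(mean TPM + 1) and had the same sign in all 7 plate sets. Of the 93 members 73 reached the floor, and 4 were higher and 18 lower in high cells. Among all 2585 genes at the floor 16.4% were higher and 17.7% lower, while among the members tested 5.48% were higher and 24.7% lower. The median log2 difference was −0.55 over the tested members and 0.03 over all genes tested. Lower calls were spread over the complexes, with 2 of 4 tested genes of complex II, 3 of 8 of complex III, 4 of 11 of complex IV, 6 of 15 of complex V and 3 of 35 of complex I. After rescaling 5 members were higher and 25 lower of 82, all 22 among them, beside 13.7% of all genes in either direction. In cells of 2000 to 4000 genes 3 of 73 were higher and 20 lower, beside 17.7% and 18.4% of all genes, and 16 of the 22 were again called, without Ndufa2, Ndufs3, Ndufs7, Cox7b, Atp5f1 and Atp5e.

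**Figure D4:**
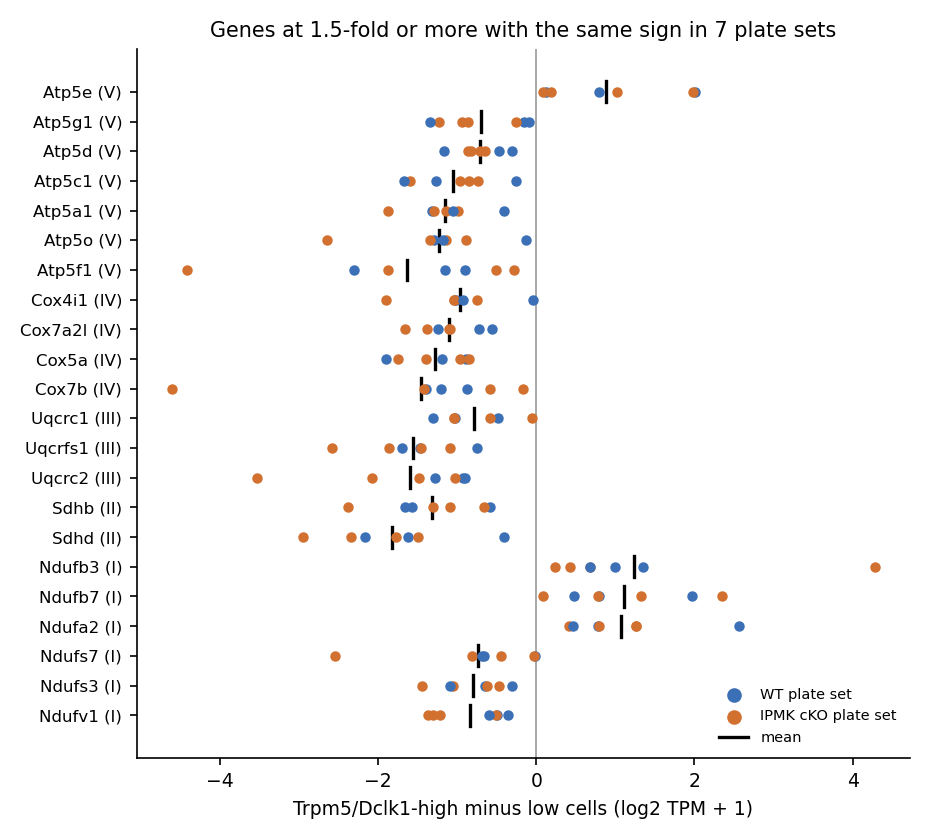
The 22 called members (rows) with the log2(TPM + 1) difference of Trpm5/Dclk1-high minus low cells (x axis) in each plate set (points, coloured by genotype label) and its mean (tick). The 4 genes right of 0 are Atp5e, Ndufb7, Ndufb3 and Ndufa2, and the 18 left of 0 include Sdhd, Atp5f1, Uqcrc2 and Uqcrfs1; some points of plate set 7 stand far from the others.

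In complex I, 3 small accessory subunits were higher in high cells and 3 core subunits were lower. Ndufb7 was 87.99 ± 23.9 against 45.1 ± 21.5 TPM (1.11, SD 0.81), ranging over plate sets from 52.5 to 114.5 TPM in high and from 9.47 to 65.5 TPM in low cells. Ndufa2 was 33.7 ± 11.97 against 16.3 ± 7.47 TPM (1.08, SD 0.74), and Ndufb3 18.4 ± 4.84 against 9.18 ± 5.08 TPM (1.24, SD 1.39). The core subunits Ndufv1, which binds NADH, Ndufs3 and Ndufs7 went the other way. Ndufv1 was 26.7 ± 6.16 against 48.4 ± 9.97 TPM (−0.84, SD 0.44), Ndufs3 17.95 ± 5.79 against 30.9 ± 6.25 TPM (−0.80, SD 0.40) and Ndufs7 42.5 ± 16.4 against 64.3 ± 12.4 TPM (−0.74, SD 0.85). Without plate set 7, Ndufs7 differed by −0.44 and was no longer called. The 7 assembly factors together held only 24.4 ± 8.56 TPM in high cells.

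Complex III fell in 3 of its core genes. Uqcrfs1, the Rieske iron-sulphur protein (chromosome 13 from 30540308 to 30545362), was 18.5, 16.8 and 13.7 TPM in WT and 17.8, 19.3, 21.2 and 9.67 TPM in cKO high cells. The low cells of the same plate sets held 53.1, 28.99 and 46.6 TPM (WT) and 50.9, 73.2, 46.3 and 63.2 TPM (cKO). No value overlapped, and the log2 difference was −1.56 (SD 0.59). The core proteins Uqcrc1 (45.2 ± 13.1 against 77.9 ± 18.6 TPM, −0.79) and Uqcrc2 (15.8 ± 7.46 against 44.2 ± 21.6 TPM, −1.60) were lower too, while the small subunits Uqcrq, Uqcr10, Uqcr11 and Uqcrh were not called.

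In complex IV the lower genes were Cox5a, Cox4i1, Cox7a2l and Cox7b. Cox5a reached at most 96.01 TPM in high cells and was at least 97.8 TPM in low cells, without overlap (69.3 ± 17.4 against 168.6 ± 34.2 TPM, −1.28, SD 0.42). Cox4i1, a regulatory subunit (chromosome 8 from 120668222 to 120674207), was 267.6 ± 68.3 against 512.6 ± 105.3 TPM (−0.96, SD 0.55). Cox7a2l, known for its part in joining complexes III and IV, was 23.8 ± 9.94 against 50.4 ± 11.6 TPM (−1.11, SD 0.38). Cox7b was 8.74 ± 5.14 against 22.4 ± 12.5 TPM, and was listed at 0 in the high cells of plate set 7. In complex V the alpha and gamma subunits Atp5a1 (47.2 ± 13.3 against 103.3 ± 19.8 TPM, −1.15) and Atp5c1 (25.5 ± 5.66 against 55.5 ± 19.7 TPM, −1.05) were lower in high cells. So were the delta subunit Atp5d (81.9 ± 15.4 against 134.2 ± 22.5 TPM), the stalk subunits Atp5f1 (27.5 ± 18.8 against 66.5 ± 24.9 TPM) and Atp5o (62.8 ± 23.01 against 139.5 ± 37.4 TPM), and the c-ring gene Atp5g1 (79.3 ± 25.4 against 126.6 ± 32.6 TPM). The epsilon subunit Atp5e was the exception, at 179.6 ± 48.1 against 99.1 ± 32.9 TPM (0.88, SD 0.84). It was above 0 in 56.96% of high and 28.8% of low cells. Within each plate set Atp5e was higher in high cells, with close values in plate sets 1 and 2, at 143.8 against 132.3 and 125.8 against 110.9 TPM. Atp5b was not called. Subunits of one enzyme thus lay on both sides.

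The start regions of 3 of the 4 higher genes follow, because they share the direction opposite to most members.
Ndufb3, chr1:58586264-58586383, plus strand: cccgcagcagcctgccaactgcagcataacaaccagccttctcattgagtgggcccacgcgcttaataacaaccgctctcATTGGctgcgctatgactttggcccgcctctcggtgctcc
Ndufb7, chr8:83566551-83566670, plus strand: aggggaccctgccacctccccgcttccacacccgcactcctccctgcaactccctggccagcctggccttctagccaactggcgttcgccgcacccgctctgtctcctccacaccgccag
Atp5e, chr2:174464106-174464225, minus strand: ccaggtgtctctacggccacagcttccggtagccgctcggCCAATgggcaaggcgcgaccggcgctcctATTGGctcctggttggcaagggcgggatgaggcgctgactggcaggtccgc
Ndufb3 holds 1 CCAAT box and Atp5e 2, on opposite strands, and Ndufb7 none of the 4 motifs.

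All 4 higher genes have a median coding transcript under 1200 bases, as do most of the 73 tested members. Members with a median coding transcript under 600 bases had a median log2 difference of −0.07 (n = 26, 2 higher and 1 lower), those of 600 to 1200 bases −0.74 (n = 37, 2 higher and 12 lower) and those of 1200 bases or more −0.62 (n = 10, 0 higher and 5 lower). Across the 73 members the rank correlation of length and difference was −0.44, and across 2216 other genes 0.08, both given as descriptions over genes of the same libraries. The role of transcript length in the members' differences was not tested.

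Lists of related genes, counted by the same rule, gave the setting. Of 12 tested genes of fatty acid oxidation and butyrate use, 10 were lower in high cells, with a median of −1.46. The dehydrogenase Acads was 8.99 against 29.8 TPM and the hydratase Echs1 13.3 against 50.6 TPM. Of 14 citric acid cycle genes 6 were lower and 0 higher (median −0.83), among them citrate synthase Cs (8.79 against 29.3 TPM) and malate dehydrogenase Mdh2 (27.4 against 62.3 TPM). Glycolysis had 5 of 13 lower (median −0.61), including Gapdh (173.9 against 348.9 TPM) and Gpi1 (19.3 against 57.8 TPM). Antioxidant and uncoupling genes had 4 of 10 lower (median −0.75), led by Txn2 (15.8 against 126.7 TPM) and the ADP/ATP carrier Slc25a5 (68.1 against 195.9 TPM), and import, fission and fusion genes 3 of 11 (median −0.81), among them Vdac1 (18.8 against 46.1 TPM). Among assembly and other chain genes outside the 93, cytochrome c1 Cyc1 (29.5 against 83.9 TPM), Tmem70 and Higd1a were lower and Uqcc3 higher of 10 tested, and 0 of 5 complex IV assembly genes were called. Of the biogenesis regulators only 1 reached the floor, and it was not called. These shares stand beside the 17.7% of all genes that were lower.

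The mitochondrial genome's own protein genes differed less than its total. The 13 protein genes summed to 3488 ± 515.5 TPM in high and 4419 ± 1435 TPM in low cells (−0.30, SD 0.38, lower in 5 of 7 plate sets). All 37 mitochondrial rows summed to 26103 ± 4996 and 59563 ± 16561 TPM (−1.16, SD 0.43, lower in 7 of 7). Of 12 protein genes at the floor, mt-Nd2 was higher (127.4 against 58.8 TPM) and mt-Co1 lower (884.8 against 1804 TPM).

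**Figure D5:**
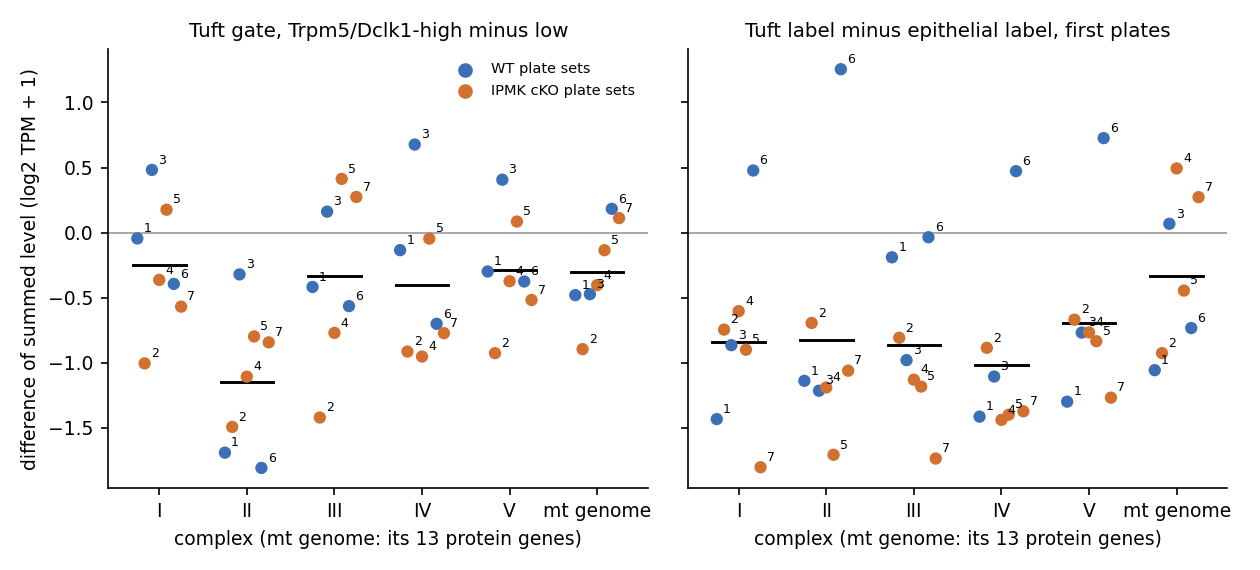
Difference of the summed level of each complex and of the 13 mitochondrial protein genes (y axis, log2 TPM + 1) per plate set (numbered points, coloured by genotype label; bars are means) for Trpm5/Dclk1-high minus low tuft-gate cells (left) and tuft minus epithelial labels on first plates (right). On the left complex II alone among the 5 complexes is below 0 in all 7 plate sets (mean −1.15), and on the right plate set 6 lies above the other 6 plate sets in complexes I, II, IV and V.

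Paralogue sets were dominated by the same member in all classes. Cox4i1, Cox8a and Cox6a1 held 100% of their sets in high and low cells, with Cox4i2, Cox8b, Cox8c and Cox7b2 above 0 in no kept cell and the muscle form Cox6a2 in 1 epithelial well. Cox6b1 held 100% in high and 99.2% in low cells, and Ndufa4l2 was above 0 in 1 high cell. The Cox7a set was split, with Cox7a2l at 57.7% ± 9.5 and Cox7a2 at 41.3% ± 10.3 in high cells and 71.6% ± 14.7 and 22.6% ± 13.7 in low cells, shares that overlap between the classes. The 3 c-ring genes, which encode the same mature protein, kept shares of 47.7%, 26.9% and 25.4% (Atp5g1, Atp5g2 and Atp5g3) in high cells and 47.03%, 26.4% and 26.6% in low cells.

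Some members share sequence with processed copies, and RSEM shares out reads that fit several transcripts by estimation. By 25-base words, 20 members had 34 copies among the table's rows, of which 30 are annotated pseudogenes. Copies held 6.14% of the TPM of members and copies together over all high cells. Cycs was the extreme, at 1.14 TPM in high cells with 36.2 TPM in 4 copies (96.9% of the total), followed by Ndufb4 at 3.46 TPM with 52.1 TPM in 2 copies (93.8%), so the levels of both genes are uncertain. Atp5g1 and Atp5g2 had 44.7% and 50.2% in copies. With copies added to each member, 4 members were higher and 16 lower in high cells, and Atp5g1 (−0.57) and Cox7a2l (−0.71) were no longer called.

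Wells of both labels lie on the first plate of every set, which allowed a comparison within plates. In 6 of 7 plates the tuft wells had the lower sum, at 5427 against 12247 TPM (plate set 1), 4913 against 8464 (2), 4857 against 9351 (3), 6742 against 13923 (4), 5419 against 11728 (5) and 4000 against 11334 TPM (7). Plate set 6 went the other way, at 7901 against 5779 TPM. The mean log2 difference was −0.87 (SD 0.62), and −1.09 without plate set 6. In that plate set 24 of 62 tuft wells (38.7%) but 12 of 20 epithelial wells (60%) met the Trpm5 and Dclk1 thresholds. At most 5 of 13 epithelial wells did so in any other plate set. The tuft share was much the same in plate set 7, at 9 of 23 wells (39.13%). Epithelial wells of plate set 6 below the thresholds averaged 7434 TPM, still under its tuft wells. Trpm5/Dclk1-high cells set against epithelial wells below the thresholds gave −1.11 (SD 0.38). The part of the wells meeting the thresholds in the direction of plate set 6 was not tested.

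The number of genes detected moved with this difference. Epithelial wells had more genes above 0 than tuft wells in the same 6 plate sets, for example a median of 3506 against 3003 in plate set 2 and 3782 against 1756 in plate set 7, and fewer in plate set 6 (1935 against 3207). Over cells, the rank correlation of the 93-gene sum with the number of genes detected was 0.74 in high cells, 0.73 in low cells and 0.75 in epithelial wells. With cells of 2000 to 4000 genes only, 3 plate sets gave a value and the difference was −0.22 (SD 0.49). The part of depth in the difference was not tested further.

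By the same rule 0 of 76 tested members were higher and 1 lower in tuft wells of the 7 plates, beside 0.948% and 3.89% of 2954 genes. The 1 gene was Uqcr10, a small subunit of complex III, at 58.4 ± 17.5 against 119.1 ± 31.2 TPM (−1.02, SD 0.31), and after rescaling it differed by −0.84 and was not called. Of the 76 members 71 had a difference below 0, with a median of −0.81 against −0.48 over all genes. Without plate set 6, a choice made after its values were seen, 0 members were higher and 42 of 76 lower (55.3%), beside 4.18% and 25.1% of 3110 genes. The median was then −1.03 over members and −0.65 over all genes tested, and after rescaling 32 of 83 members (38.6%) and 10.7% of all genes were lower. By complex, 13 of 37 tested genes were lower in complex I, 3 of 4 in II, 6 of 8 in III, 10 of 11 in IV and 10 of 16 in V.

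By share, complex IV had the most lower calls, and by number complex I. Cox5b, a zinc-binding subunit of complex IV, was 268.7 ± 157.1 TPM in tuft and 987.7 ± 612.4 TPM in epithelial wells of the 6 plates (−1.83, SD 0.88) and Cox8a 253.9 ± 16.5 against 609.2 ± 140.3 TPM (−1.23, SD 0.33). Outside complex IV, Atp5c1 was 29.1 ± 4.08 against 97.04 ± 17.5 TPM (−1.69), Uqcrfs1 28.8 ± 13.4 against 88.1 ± 21.2 TPM (−1.66), Ndufc2 13.9 ± 4.40 against 52.95 ± 15.8 TPM (−1.85) and Sdhb 36.1 ± 10.5 against 81.8 ± 34.8 TPM (−1.09). Uqcrq was not called, at 627.3 ± 248.2 against 1252 ± 554.6 TPM.

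Genotype labels were compared within each class, as the study's design asks what loss of Ipmk does in these cells. In high cells the 93-gene sum was 5744 ± 1020 TPM in WT (SD, n = 3) and 4794 ± 1235 TPM in cKO (SD, n = 4), a log2 difference of −0.28 within the SD of 0.35, and 0.07 in cells of 2000 to 4000 genes. In low cells it was 6288 ± 1605 and 6936 ± 2264 TPM (0.11, SD 0.46). In epithelial wells it was 9126 ± 3240 and 11362 ± 2243 TPM (0.36, SD 0.42), and 0.09 without the wells that met the Trpm5 and Dclk1 thresholds. No complex of the 5 separated the genotypes in any class without overlap. The widest mean differences were in epithelial wells, where cKO minus WT was 0.71 (SD 0.66) for complex II and 0.61 (SD 0.36) for complex III, the latter at 1439 ± 182.8 TPM in WT and 2262 ± 628.2 TPM in cKO. In high cells the complexes ranged from −0.38 (complex IV) to 0.24 (complex II), each with overlapping plate sets.

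Between genotypes, a call needed 10 TPM, a 1.5-fold difference and no overlap between the plate sets of WT and cKO. In high cells 1 of 71 tested members was higher in cKO and 0 were lower, beside 1.82% and 2.47% of all 2309 genes. The gene was Sdha, at 12.6, 17.3 and 14.0 TPM in WT plate sets 1, 3 and 6 and 27.8, 20.1, 19.4 and 62.2 TPM in cKO plate sets 2, 4, 5 and 7. The groups did not overlap (0.94, SD 0.60), but without plate set 7 the difference was 0.58, under 1.5-fold, and 0 members were called. Without plate set 6, 1 member was higher and 7 lower of 71, beside 1.91% and 13.7% of all genes. The median over tested members was −0.33 and over all genes −0.19. Of all listed genes, only Cox14 (12.1 against 21.5 TPM) and Higd2a (15.9 against 27.4 TPM), assembly proteins of complex IV, were lower in cKO. Only Acadvl (16.1 against 8.57 TPM), an enzyme of fatty acid oxidation, and mt-Co2 (75.2 against 20.1 TPM), a core subunit of complex IV, were higher. The number of listed genes tested between genotypes is not given, so no list is said to differ.

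In low cells, where Ipmk goes against the label, 1 of 72 members was higher and 0 lower in wells labelled cKO, beside 3.26% and 1.85% of 2328 genes. Cox5b was 251.9, 184.2 and 281.2 TPM in WT and 361.9, 667.9, 352.1 and 397.6 TPM in cKO plate sets (0.86, SD 0.39), with plate set 4 far above the other 3. Its WT and cKO values in high cells were 192.2 ± 25.8 and 196.5 ± 100 TPM. Of all listed genes only Cyc1 (101.7 against 60.1 TPM) and the fusion protein gene Mfn2 (11.0 against 5.93 TPM) were called, both higher. Here too no list is said to differ. Colonocyte markers were higher in cKO low cells as well (7155 against 4027 TPM), and their part in these differences was not tested. The median was 0.05 over members and −0.06 over all genes.

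In epithelial wells 3 of 75 members were higher and 0 lower in cKO, beside 3.24% and 5.84% of 3393 genes, so the share (4.0%) was near that of all genes. The 3 were the ATP synthase genes Atp5f1, Atp5o and Atp5g3. Atp5f1 was 46.7, 50.4 and 42.9 TPM in WT and 59.6, 205.9, 79.1 and 117.5 TPM in cKO plate sets (1.13, SD 0.60). Atp5o was 106.2 ± 33.2 against 193.9 ± 54.2 TPM (0.87, SD 0.45) and Atp5g3 80.3 ± 38.4 against 128.9 ± 16.5 TPM (0.81, SD 0.55), the latter 0.33 and not called without plate set 6. After rescaling 4 of 85 members were higher (Atp5f1, Atp5o, Atp5g2 and Cox5a) and 0 lower, beside 5.06% and 3.84% of all genes. Without plate set 1, 13 members were higher and 0 lower of 75, beside 8.47% and 10.4% of all genes, and without plate set 6, 2 were higher and 6 lower of 76, beside 3.76% and 20.3%. The WT wells include 18 that met the tuft thresholds. Over all epithelial wells, tuft markers, Trpm5 and Dclk1 among them, summed to 846.3 TPM in WT and 17.95 TPM in cKO. Goblet markers summed to 0.97 to 204.3 TPM over WT and 157.7 to 11787 TPM over cKO plate sets, and colonocyte markers to 2475 to 5504 and 4395 to 10297 TPM. The part of these cell types in the genotype differences was not tested. Ogdh of the citric acid cycle (25.2 against 12.9 TPM), Gpx1 (105.8 against 61.1 TPM) and Timm17a (23.3 against 10.8 TPM) were the only listed genes called. All were higher in cKO, and no list is said to differ. The median was 0.21 over members and −0.22 over all genes tested.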

How the data were processed

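The deposited table gives TPM per well. Per the submitters' processing notes the tools were Bowtie2 2.4.2 and RSEM 1.3.3 with build mm10; settings and annotation release are not stated there. In 1203 wells of colon cells, those with at least 1000 genes above 0 TPM were kept; 38 of the wells, on a plate with almost no TPM, were not used. No doublet caller was run, and no 2 kept columns were identical. TPM was averaged over cells of a class within a plate set (at least 5 cells), and differences were taken on log2(mean TPM + 1) with plate sets weighted equally, so low genes are understated. The rule of size (10 TPM, 1.5-fold, no overlap or 1 sign) was applied to all genes. Its same-sign form was checked on resampled high cells with planted changes well above 1.5-fold. The no-overlap form, used between genotypes, was not checked. "Rescaled" values leave out Rn18s-rs5, 37 mitochondrial and 92 spike-in rows and set each cell to the same total.

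Genes named are the 3 most abundant of each complex, the Sdh genes, Cycs, paralogue sets, members past the rule, and list genes past it; Ndufc2, Cox8a and others of the comparison without plate set 6 were chosen after their values were seen. Members and lists were chosen with earlier results of these data known. Lengths, positions and copies came from GENCODE M21 (GRCm38), promoter sequences from RefSeq GRCm38.p6. Alternatives were the scale, averaging, gene filters, pseudocount, floor, thresholds, plates and each plate set left out. Python 3.11.15, NumPy 2.4.6, pandas 2.3.3 and matplotlib 3.10.9 were used.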

Additional observations from a re-analysis of the deposited data

Results flagged for a closer look

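Each group of 4 to 10 plate-set values was searched for a highest or lowest value far from the others by Dixon's criterion. Of 58 groups, 9 held one. Chance flags about 1 in 20 independent groups, but these groups share wells, and the single genes were first picked by the rule of size. The count therefore cannot show an excess over chance. Plate set 6 stood apart in 4 of the 9 groups, all tuft minus epithelial labels on first plates and covering the same wells. Its log2 difference was 0.45 for the sum over all 93 genes (the other plate sets ran from −1.50 to −0.78), 1.26 for complex II (−1.71 to −0.69), 0.47 for complex IV (−1.44 to −0.89) and 0.73 for complex V (−1.30 to −0.67).

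Cox5b in Trpm5/Dclk1-low cells of plate set 4 was 667.9 TPM, with the other 3 cKO plate sets between 352.1 and 397.6 TPM. Between high and low cells, Ndufa2 differed by 2.56 in plate set 3 (others 0.42 to 1.26). In plate set 7, with 9 high and 14 low cells, Ndufs7 differed by −2.55 (others −0.81 to −0.02), Ndufb3 by 4.28 (0.24 to 1.36) and Cox7b by −4.61 (−1.42 to −0.16).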

How the results depend on the processing

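No paired analysis was possible because no number ties a WT to a cKO well and no result comes from a test; high minus low, and tuft minus epithelial labels, were taken within plate sets as reported. The differences of the 93-gene sum moved by less than 1 SD between plate sets under each alternative run, except tuft minus epithelial labels, which was −0.22 in cells of 2000 to 4000 genes; the cause was not tested. The sign changed in 1 of 18 alternatives for cKO minus WT in high cells and 4 of 18 in low cells, both within the SD, and in none run of the other 3 comparisons. Complex II, high minus low, stayed between −1.60 and −1.01.

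With 1 plate set left out in turn, the sums ran from −0.44 to −0.11 (cKO minus WT, high cells), −0.11 to 0.30 (low cells), 0.06 to 0.61 (epithelial wells), −0.47 to −0.22 (high minus low) and −1.09 to −0.77 (tuft minus epithelial labels), and complex II from −1.29 to −1.04. Counts of called members ran in the same order from 0 to 8, 1 to 4, 3 to 13, 22 to 30 and 1 to 42. The share of all genes called moved too. Without plate set 6, 13.7% of all genes were lower in cKO high cells and 25.1% in tuft wells. With all plate sets these shares were 2.47% and 3.89%. Without plate set 1, 8.47% of all genes were higher in cKO epithelial wells, against 3.24%. These ranges are therefore not read as results about the members. After rescaling, 2 members were called between genotypes in high cells and 3 in low cells, where a floor of 1 TPM and no floor each gave 2. In epithelial wells 4 were called, with Atp5g3 lost and Cox5a and Atp5g2 gained. Only the rescaled epithelial count has its share of all genes above, and the other counts are not read as results about the members. The epithelial genotype difference in cells of 2000 to 4000 genes could not be computed, because 1 WT plate set held enough cells. TPM carries no read depth, so counting error is unknown.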
